A study of Mus musculus with 24 samples.

Results

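The genes described here encode the elastic fiber and the enzymes that crosslink it: elastin (Eln), fibrillin-1 and fibrillin-2 (Fbn1, Fbn2), the microfibril-associated proteins Mfap4 and Mfap5, fibulin-1, fibulin-2 and fibulin-5 (Fbln1, Fbln2, Fbln5), lysyl oxidase (Lox) and lysyl oxidase-like 1 (Loxl1). They were chosen by name, as the genes of the count table whose Ensembl identifier carries 1 of these symbols in the GENCODE M1 annotation, and make 10 of 37991 genes. Earlier results of these data were known when the names were chosen. All 10 were among the 14918 genes tested. RNA of mammary tumors or glands was sequenced at weeks 6, 8, 10 and 12, each time from 3 PyMT and 3 FVB mice, for 24 samples in 8 groups. PyMT mice are of the FVB strain and carry a transgene for the middle T antigen of polyoma virus, which the MMTV promoter drives in mammary epithelium, so that the transgene is not expected in the fibroblasts and vessel cells that make elastic fibers. The labels name the PyMT tissue of week 6 hyperplasia, of week 8 adenoma/MIN, of week 10 early carcinoma and of week 12 late carcinoma. FVB mice of the same ages without the transgene gave the control glands, and neither group received an agent.

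Elastic fibers give skin, arteries, lung and the connective tissue around mammary ducts their recoil. Fibrillins assemble into microfibrils, onto which fibulins help to bring tropoelastin, the soluble form of elastin, and lysyl oxidases then oxidize lysines so that the elastin molecules crosslink into an insoluble core. Fibroblasts and smooth muscle cells are the usual makers, and lysyl oxidases also crosslink collagen, which is the better known part of the stroma of mammary tumors.

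The promoters of 3 of the genes are shown because their RNA followed different courses: Loxl1 passed the test at all 4 weeks, Fbln5 at weeks 8 and 12, and Eln at none. Each is the 250 bases before the start of the gene model on the mm9 genome, read 5′ to 3′ on the strand of the gene, and capitals mark matches to the motifs searched.
Loxl1, chr9:58161020-58161269, minus strand: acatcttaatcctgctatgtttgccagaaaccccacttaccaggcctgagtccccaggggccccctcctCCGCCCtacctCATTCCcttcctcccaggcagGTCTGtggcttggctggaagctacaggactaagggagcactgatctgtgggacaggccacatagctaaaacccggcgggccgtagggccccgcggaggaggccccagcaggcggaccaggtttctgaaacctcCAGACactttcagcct
Fbln5, chr12:103057266-103057515, minus strand: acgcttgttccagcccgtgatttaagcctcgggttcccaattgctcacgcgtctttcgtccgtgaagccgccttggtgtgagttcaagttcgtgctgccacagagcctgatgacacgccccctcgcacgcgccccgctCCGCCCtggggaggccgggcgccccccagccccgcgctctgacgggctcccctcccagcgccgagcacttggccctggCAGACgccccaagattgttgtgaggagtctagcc
Eln, chr5:135223112-135223361, minus strand: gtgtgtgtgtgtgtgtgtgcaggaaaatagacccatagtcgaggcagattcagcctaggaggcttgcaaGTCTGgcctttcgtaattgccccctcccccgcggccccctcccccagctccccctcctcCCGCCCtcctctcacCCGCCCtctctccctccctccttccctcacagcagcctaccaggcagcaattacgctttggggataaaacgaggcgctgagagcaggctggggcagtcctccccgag

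The motifs were searched on both strands in the promoters of all 10 genes and of 14891 tested genes. The GC box GGGCGG, a letter pattern that Sp1 family factors bind, was found in 5 of the 10 (Eln, Fbn2, Fbln5, Mfap4 and Loxl1) and in 51.1% of all promoters. The short SMAD element CAGAC was in 8 of the 10 and in 40.5% of all, and its capitals stand in all 3 sequences above. The TEAD letters CATTCC were in the Loxl1 promoter alone among the 10, and in 10.4% of all promoters. Neither the TATA box TATAAA (8.1% of all promoters) nor the AP-1 letters TGANTCA (4.6%) occurred in these windows of the 10 genes. The GC content of the 3 sequences shown was 60.8% for Loxl1, 66.8% for Fbln5 and 62.8% for Eln. These matches describe letters and not bound sites.

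Total counts ran from 6969375 to 13516601 per library. In 13 libraries (6 PyMT, 7 FVB) a histogram of counts over genes peaked at 8 to 25, so that reads came in clumps of about that size, called packets here. The PyMT week 6 and FVB week 10 groups held packets in each of their 3 libraries, and in the library with the most gaps (FVB week 10 replicate 3) 4.40% of 3799 genes of middle level had a count of 0. A packet counts for less than its reads, so low genes carry more error in these libraries. Over the 13, the median number of packets behind a gene was 6.17 for Mfap4, 14.9 for Fbln1, 15.1 for Fbn2 and 15.9 for Fbln5, against 437 for Fbn1.

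The elastic fiber genes were lower in PyMT than in FVB glands at every stage where they passed the test, and none was called higher. A gene was called when its adjusted p was under 0.05 and its fold change over 2, in the quasi-likelihood test of edgeR, with p adjusted by Benjamini-Hochberg over all 14918 genes. At week 6, 4 of the 10 were called lower (Loxl1, Fbln1, Fbn1 and Fbln2), where 6.46% of all tested genes were called lower and 3.58% higher. Week 8 gave 2 of 10 (Loxl1 and Fbln5) against 6.37% lower and 3.57% higher among all genes. Week 10 gave 1 of 10 (Loxl1) against 9.09% lower and 4.83% higher, which is close to the background. Week 12 gave 4 of 10 (Loxl1, Fbln1, Fbln5 and Mfap5) against 13.0% lower and 7.75% higher. The median log2 fold change of the 10, PyMT over FVB, was -1.21, -0.98, -0.75 and -0.69 at weeks 6, 8, 10 and 12, while the median of all tested genes was -0.08, -0.04, 0.01 and -0.00046. With week as a term in a fit of all 24 samples, 4 of 10 were called lower (Loxl1, Fbln1, Fbln5 and Mfap5) against 17.2% of all genes lower and 8.51% higher.

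These counts moved with single libraries and with the scaling. Leaving out 1 library at a time gave 2 to 5 called genes at week 6, 0 to 5 at week 8, 1 to 2 at week 10 and 1 to 4 at week 12, and 4 to 6 over the 4 weeks. TMM scaling put 62.6% to 65.3% of the calls of each week on the lower side, and scaling by library size alone put 42.6% to 49.2% there, with the median of all genes at 0.19 to 0.32. Under library size alone 2, 1, 1 and 2 of the 10 were called lower at weeks 6, 8, 10 and 12, and 3 over the 4 weeks.

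**Figure D1:**
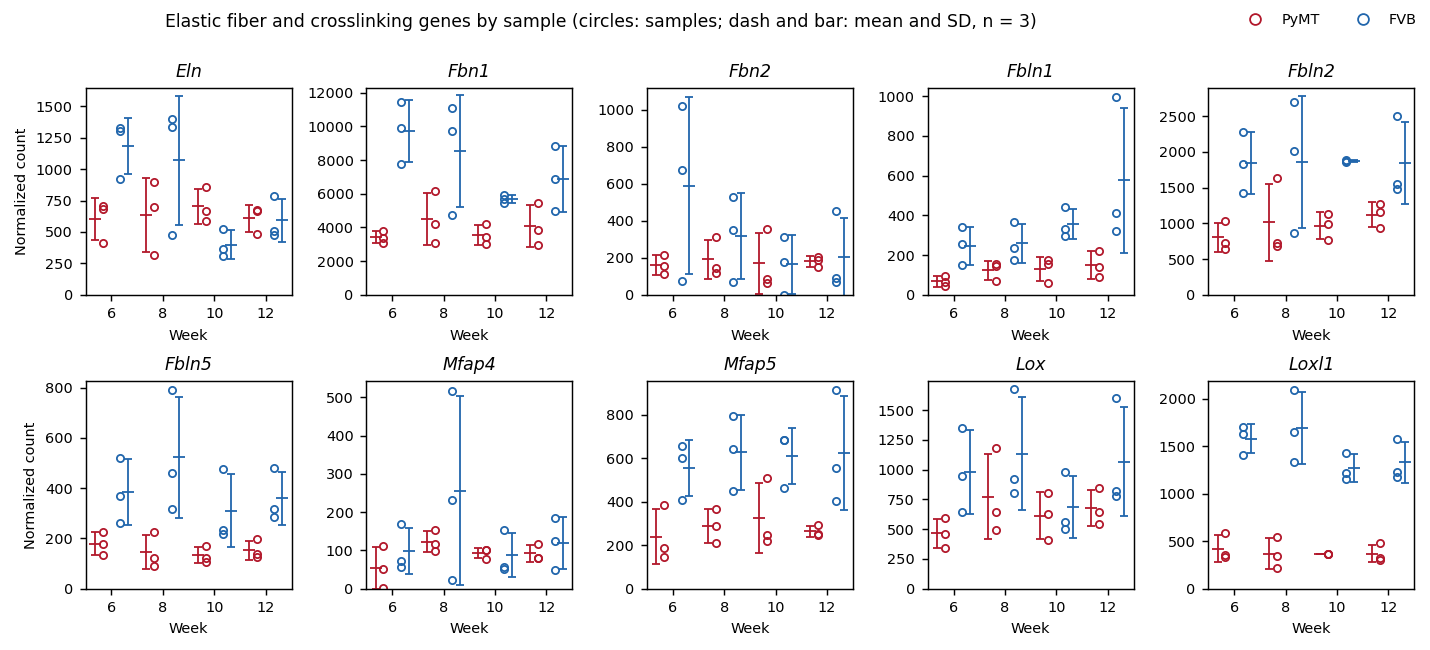
Normalized counts (counts over DESeq2 size factors, vertical axes from 0, a scale of its own for each gene) of the 10 genes by week, with PyMT in red and FVB in blue; circles are samples, and the dash and bar beside them give the mean and SD of 3. The Loxl1, Fbln1 and Fbln5 circles of PyMT lie below those of FVB at all 4 weeks, and the Eln circles of PyMT lie below FVB at week 6 and above it at week 10. How many of all tested genes separate so was not counted.

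Elastin, the elastic core itself, did not pass the test at any week when each week was fitted without a block. At week 6 the normalized counts of Eln were 411, 683 and 711 in PyMT and 923, 1303 and 1328 in FVB. Week 8 gave 316, 700 and 896 in PyMT and 476, 1334 and 1400 in FVB. So the PyMT samples lay below all FVB samples at week 6, and the groups overlapped at week 8. At week 10 the counts were 590, 664 and 857 in PyMT and 311, 362 and 526 in FVB. Week 12 gave 482, 670 and 673 in PyMT and 479, 509 and 790 in FVB. Here all PyMT samples lay above all FVB samples at week 10, and the groups overlapped again at week 12. How many of all tested genes separate in this way was not counted, so a lack of overlap has no background, here and for the genes below. The log2 fold changes were -0.98 (SE 0.27, adjusted p = 0.0501), -0.72 (SE 0.49, adjusted p = 0.391), 0.87 (SE 0.27, adjusted p = 0.0666) and 0.084 (SE 0.24, adjusted p = 0.827) at weeks 6, 8, 10 and 12. Over the 4 weeks Eln gave -0.21 (SE 0.23, adjusted p = 0.490), and 0.071 under scaling by library size alone. The PyMT means stayed between 602 ± 166 and 704 ± 138 (SD, n = 3), and the FVB means ran from 1185 ± 227 at week 6 to 400 ± 112 at week 10. Without FVB week 10 replicate 2, the difference of week 10 was 1.11 and passed the test (adjusted p = 0.0365).

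Among the microfibril genes, Fbn1, the main fibrillin of adult tissue, was lower in PyMT at week 6. Its normalized counts there were 3065, 3399 and 3796 in PyMT and 7794, 9919 and 11460 in FVB, with no overlap, and its log2 fold change was -1.51 (SE 0.23, adjusted p = 0.00545). The call of week 6 held without any 1 library. At weeks 8, 10 and 12 the log2 fold changes of Fbn1 were -0.91, -0.64 and -0.71, with adjusted p of 0.170, 0.0589 and 0.0984, and the groups overlapped at weeks 8 and 12. Over the 4 weeks Fbn1 was 1.93-fold lower (log2 -0.95, SE 0.16, adjusted p = 1.97e-05), past the adjusted p and short of the fold change of 2. Fbn1 shares part of its locus with Gm9913 on the other strand, and whether reads were counted by strand is not given in the sources used here.

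Fbn2, the fibrillin best known from developing tissue, varied more between FVB mice than between genotypes. Its FVB counts were 75.3, 674 and 1017 at week 6, 70.7, 351 and 530 at week 8, 0, 178 and 314 at week 10, and 70.0, 89.7 and 450 at week 12. The PyMT counts ran from 64.0 to 357, and the groups overlapped at all 4 weeks. The log2 fold changes were -1.88, -0.70, 0.091 and -0.13, with adjusted p between 0.149 and 0.975, and the value over the 4 weeks was -0.66 (SE 0.52, adjusted p = 0.303). The count of 0 was in FVB week 10 replicate 3, a library with packets of 19 reads, so at that depth a low level could not be told from none.

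Mfap5, which binds fibrillin microfibrils, was called lower at week 12. Its counts there were 246, 250 and 293 in PyMT and 405, 554 and 913 in FVB (log2 fold change -1.20, SE 0.29, adjusted p = 0.0183). All PyMT samples lay below all FVB samples at weeks 6, 8 and 12, and the groups overlapped at week 10. The other weeks gave log2 fold changes of -1.21, -1.11 and -0.86 at weeks 6, 8 and 10, with adjusted p of 0.0887, 0.0572 and 0.139. Mfap5 was 2.15-fold lower over the 4 weeks (log2 -1.10, SE 0.18, adjusted p = 1.45e-05), which became -0.81 under library size alone. The call of week 12 was lost without PyMT replicate 2 (adjusted p = 0.0674), PyMT replicate 3 (0.0686) or FVB replicate 3 (0.0557).

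Mfap4, a fibrinogen-domain protein of the microfibril surface, overlapped between the groups at all 4 weeks. Its log2 fold changes were -0.85, -1.05, 0.16 and -0.33, with adjusted p between 0.482 and 0.895, and the value over the 4 weeks was -0.53 (SE 0.44, adjusted p = 0.329). Counts ran from 1.04 to 154 in PyMT and from 21.5 to 516 in FVB. The lowest was a raw count of 1 in PyMT week 6 replicate 2, whose packets held 25 reads. Mfap4 overlaps Mapk7 on the other strand.

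The fibulins, which link elastin to microfibrils and basement membranes, included Fbln1 and Fbln5, whose differences over the 4 weeks were the widest of the 10 after that of Loxl1. At week 6 the normalized counts of Fbln1 were 41.8, 62.6 and 95.9 (PyMT) and 149, 255 and 340 (FVB). At week 12 it had 86.9, 140 and 222 in PyMT and 321, 412 and 995 in FVB. The PyMT samples lay below all FVB samples at these weeks and at weeks 8 and 10. The log2 fold changes were -1.89 (SE 0.47, adjusted p = 0.0365) and -1.90 (SE 0.49, adjusted p = 0.0218) at weeks 6 and 12. Weeks 8 and 10 gave -1.04 and -1.40, with adjusted p of 0.172 and 0.0684. The fit of all weeks put Fbln1 2.96-fold lower (log2 -1.56, SE 0.25, adjusted p = 1.20e-05). Its call of week 6 held only without FVB replicate 3, and the adjusted p ran from 0.0509 to 0.124 without each of the other libraries, PyMT replicates 1, 2 and 3 and FVB replicates 1 and 2. That of week 12 was lost without PyMT replicate 1 (0.0717), PyMT replicate 3 (0.0808) or FVB replicate 3 (0.0695).

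Fbln5, a fibulin that elastic fiber assembly depends on, was called lower at weeks 8 and 12. At week 8 the counts were 91.0, 123 and 224 in PyMT and 318, 459 and 790 in FVB (log2 fold change -1.81, SE 0.46, adjusted p = 0.0446). At week 12 they were 126, 136 and 196 in PyMT and 284, 315 and 479 in FVB (-1.19, SE 0.29, adjusted p = 0.0180). PyMT lay below FVB without overlap at all 4 weeks, and weeks 6 and 10 gave -1.11 and -1.18 with adjusted p of 0.0668 and 0.0935. In all weeks together Fbln5 was 2.52-fold lower (log2 -1.33, SE 0.20, adjusted p = 4.99e-06). The call of week 8 was lost without PyMT replicate 1 (adjusted p = 0.150), PyMT replicate 2 (0.0970), FVB replicate 2 (0.101) or FVB replicate 3 (0.135), and that of week 12 without PyMT replicate 2 (0.0675), PyMT replicate 3 (0.0702) or FVB replicate 3 (0.0754).

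Fbln2, a fibulin of vessel walls and basement membranes, was called lower at week 6, with counts of 643, 726 and 1039 in PyMT and 1419, 1830 and 2280 in FVB (log2 fold change -1.21, SE 0.24, adjusted p = 0.0166). At week 10 the difference was -0.91 (SE 0.19, adjusted p = 0.0160), past the adjusted p and short of the fold change. Weeks 8 and 12 gave -0.85 and -0.67, with adjusted p of 0.300 and 0.0726, and the groups overlapped at week 8 alone. Fbln2 was 1.89-fold lower over the 4 weeks (log2 -0.92, SE 0.17, adjusted p = 7.66e-05). The call of week 6 was lost without PyMT replicate 1 (adjusted p = 0.0886), PyMT replicate 3 (0.0869), FVB replicate 2 (0.0544) or FVB replicate 3 (0.0595).

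The crosslinking enzymes differed from each other. Loxl1, the lysyl oxidase tied most closely to elastin, was called lower at all 4 weeks. Its normalized counts in PyMT and FVB were 334, 348 and 584 against 1408, 1630 and 1702 at week 6. At week 8 they were 217, 344 and 546 against 1330, 1649 and 2090. At week 10 they were 360, 363 and 369 against 1155, 1216 and 1432, and at week 12 they were 305, 326 and 477 against 1180, 1232 and 1577. The highest PyMT sample of any week, at 584, was below the lowest FVB sample of any week, at 1155. The log2 fold changes were -1.90 (SE 0.26, adjusted p = 0.00401), -2.17 (SE 0.37, adjusted p = 0.0121), -1.75 (SE 0.17, adjusted p = 0.000680) and -1.80 (SE 0.22, adjusted p = 0.000862). Over the 4 weeks Loxl1 was 3.77-fold lower in PyMT (log2 -1.92, SE 0.14, adjusted p = 5.21e-11). Without PyMT week 8 replicate 1, the call of week 8 was lost (log2 -2.12, adjusted p = 0.0629).

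Lox, the founding lysyl oxidase, which acts on collagen and elastin, was not called at any week. At week 6 its counts were 339, 461 and 589 in PyMT and 644, 948 and 1351 in FVB, without overlap (log2 fold change -1.08, SE 0.31, adjusted p = 0.0606). At weeks 8, 10 and 12 the groups overlapped, with log2 fold changes of -0.53, -0.11 and -0.61 and adjusted p of 0.437, 0.869 and 0.167. The value of week 10 was 0.15 under library size alone. Lox was 1.51-fold lower over the 4 weeks (log2 -0.59, SE 0.19, adjusted p = 0.0131), short of the fold change of 2. Without FVB week 6 replicate 1, Lox was called lower at week 6 (log2 -1.29, adjusted p = 0.0254).

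**Figure D2:**
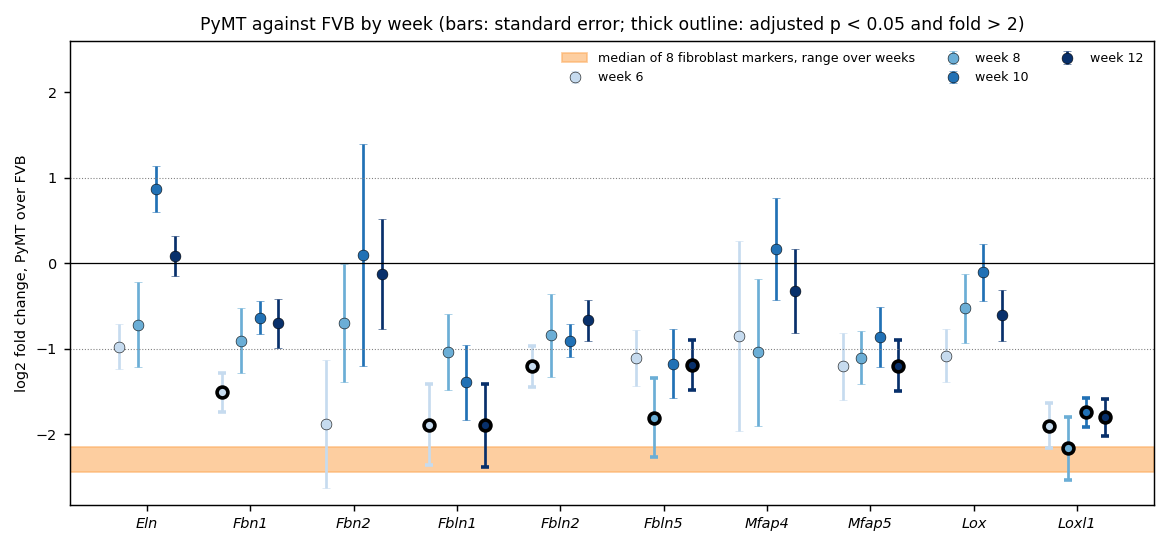
The log2 fold change of PyMT over FVB (vertical axis) with its standard error for the 10 genes at weeks 6, 8, 10 and 12, light to dark blue, where a thick outline marks an adjusted p under 0.05 with a fold change over 2. Loxl1 sits between -2.17 and -1.75 at all weeks, Eln runs from -0.98 to 0.87, and the orange band gives the range over weeks, -2.44 to -2.15, of the median of 8 fibroblast markers.

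Whether the genes moved with age or stage was tested in the fit of all 24 samples, which share 1 estimate of the spread. From week 6 to week 12, none of the 10 was called for a change of the gap between PyMT and FVB, where 0% of all genes were called, nor from week 8 to week 10, where 0.00670% (1 gene) were. None was called between weeks 12 and 6 within PyMT or within FVB, with 0% of all genes called in each. For week 6 to week 12, 691 genes had an unadjusted p under 0.05 and DESeq2 called 5 higher and 5 lower. For week 8 to week 10 these were 533 genes, and 6 higher and 1 lower. Within PyMT they were 1004 genes, and 75 higher and 22 lower, and within FVB 625 genes, and 10 higher and 9 lower. Limma voom called 3 higher and 7 lower, none, 25 higher and 13 lower, and 48 higher and 10 lower in the same order. The 10 genes were in none of the calls of these alternatives.

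Eln had the smallest unadjusted p of the 10 in the change from week 8 to week 10, a log2 change of 1.57 (SE 0.54, unadjusted p = 0.00816, adjusted p = 0.99980). Within FVB it was 2.05-fold lower at week 12 than at week 6 (log2 -1.03, unadjusted p = 0.0128, adjusted p = 0.99973), and within PyMT the value was 0.017 (adjusted p = 0.99939). Fbln1 had log2 changes from week 6 to week 12 of 1.16 in PyMT (unadjusted p = 0.0323, adjusted p = 0.668) and 1.18 in FVB (unadjusted p = 0.0278, adjusted p = 0.99973), and its change of the difference was -0.014. The log2 change of the difference from week 6 to week 12 ran from -0.095 (Fbln5) to 1.74 (Fbn2) over the 10. Loxl1 gave 0.085 (SE 0.39), so a change of the size of its standard error could not be seen.

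Per kilobase of exon, the scale on which genes can be set side by side, Fbn1 had the highest level in both genotypes, with 636 ± 201 normalized counts per kb in FVB and 320 ± 83.1 in PyMT (SD, n = 12). In FVB it was followed by Loxl1 at 439 ± 82.6, Fbln2 at 316 ± 85.3, Eln at 314 ± 165, Lox at 206 ± 81.6 and Mfap5 at 168 ± 43.9. Fbln1 at 82.3 ± 50.1, Mfap4 at 73.1 ± 70.6, Fbln5 at 67.6 ± 27.9 and Fbn2 at 30.4 ± 29.2 closed the order. Of the neighbours in this order, Loxl1 and Fbln2, Mfap5 and Fbln1, and Fbln5 and Fbn2 differed by more than the larger of their SDs, and the others did not. In PyMT the order was Fbn1, Eln at 247 ± 65.1, Fbln2 at 166 ± 50.1, Lox at 135 ± 48.3, Loxl1 at 114 ± 31.2, Mfap5 at 77.7 ± 27.8, Mfap4 at 47.1 ± 19.8, Fbln1 at 26.8 ± 12.7, Fbln5 at 26.1 ± 7.67 and Fbn2 at 16.7 ± 8.36. The neighbours that did not differ by more than the larger SD were here Fbn1 and Eln, Fbln2 and Lox, Lox and Loxl1, and Fbln1 and Fbln5. Loxl1 thus stood in the second place in FVB and in the fifth in PyMT.

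Markers of the cell types that make elastic fibers were lower in PyMT tissue, and in bulk samples fewer cells and less RNA per cell cannot be told apart. All 8 fibroblast markers were called lower at weeks 6 and 12, 6 at week 8 and 7 at week 10, and their median log2 fold change over the 4 weeks was -2.24. Their summed normalized count was 21620 to 45350 in PyMT and 52000 to 189000 in FVB. Vascular smooth muscle markers were called lower in 4, 3, 4 and 5 of 6 (1376 to 2350 summed in PyMT, 5170 to 9960 in FVB, Cnn1 at 0 in some PyMT library) and pericyte markers in 5, 5, 4 and 5 of 6 (2228 to 3467 and 8222 to 12110, Kcnj8 at 0 in some PyMT library). Endothelial markers were called lower in 6, 7, 7 and 7 of 7 (716 to 2064 and 4624 to 8354) and adipocyte markers in 8, 7, 8 and 8 of 8 (1026 to 18730 and 54710 to 155000). Luminal epithelial markers were called higher in 3, 1, 4 and 3 of 6 (17400 to 33910 and 3901 to 18080). Of 6 myoepithelial markers, which include Acta2, 2 were called lower at each week (1160 to 5475 and 2491 to 10700). The sum of 10 skeletal muscle markers ran from 0 to 35660 in PyMT, where each was at 0 in some library, and from 151 to 632100 in FVB, with 0, 3, 0 and 9 called lower. Macrophage markers were called lower in 0, 0, 3 and 0 of 6 (1953 to 4027 and 2183 to 5703), and 1 of 5 lymphocyte markers was tested and not called (0 to 79.6 and 11.6 to 78.3). The part of these cell types in the differences of the elastic fiber genes was not tested.

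Set against the mean of the 8 fibroblast markers within each sample, the PyMT mean of each of the 10 genes lay above the FVB mean. This level is the log2 of the normalized count plus 1, minus the mean of the same for the markers, and its differences are descriptions with no test. They depend on the markers, whose log2 fold changes over the 4 weeks ran from -2.93 (Dcn) to -1.54 (Col1a2). Those of Loxl1 (-1.92) and Fbln1 (-1.56) lay within this range, and those of the other genes above it. The median of the markers was -2.24, against -0.03 for all tested genes. Any gene that fell less than the markers therefore lies above in PyMT by construction, and a gene without a difference does so by about the fall of the markers. So these differences cannot show more RNA of the 10 genes per fibroblast. The level was not taken for all tested genes, so a lack of overlap has no background here. Eln was at -0.94 ± 0.32 in PyMT and -2.99 ± 0.69 in FVB (SD, n = 12), a difference of 2.06, and every PyMT sample (-1.53 to -0.30) lay above every FVB sample (-4.33 to -2.02). Lox differed by 1.67 and Fbn1 by 1.30, with all PyMT samples above all FVB samples of the same week at all 4 weeks, as for Eln, Fbln2 (1.34) and Mfap5 (1.12). Fbn2 (2.35) and Mfap4 (1.75) had larger spreads, with no overlap at 2 and 3 of the weeks. Without FVB week 10 replicate 3, whose Fbn2 count of 0 is set by the added 1, the Fbn2 difference was 1.68, and without PyMT week 6 replicate 2 the Mfap4 difference was 2.21. Fbln5 (0.95) had no overlap at 3 weeks. Fbln1 differed by 0.67 and overlapped at all 4 weeks. Loxl1 differed least, by 0.30 (-1.67 ± 0.24 in PyMT and -1.97 ± 0.24 in FVB), with no overlap at 1 week.

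**Figure D3:**
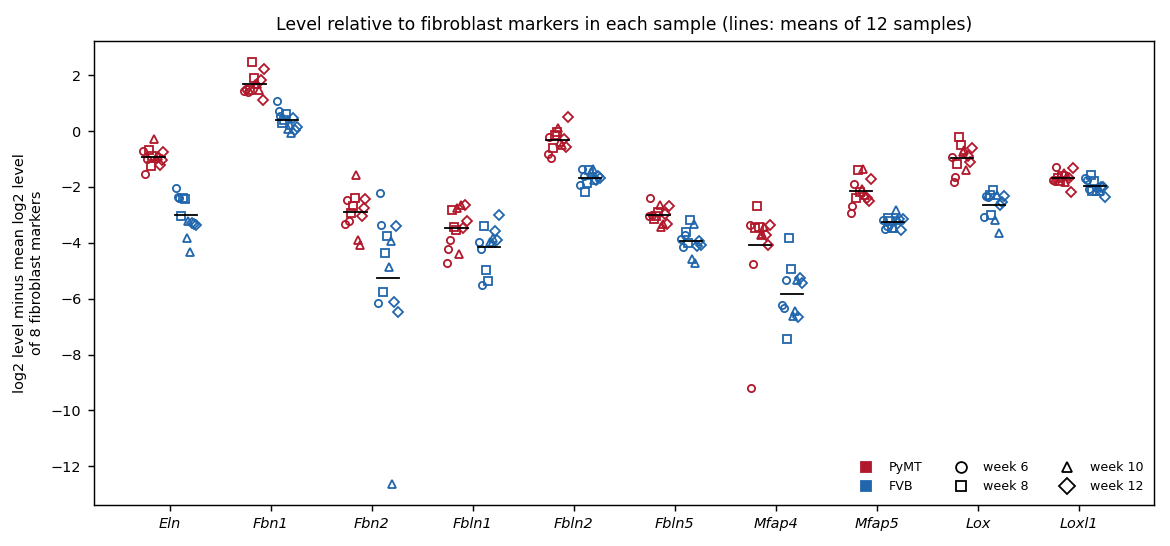
Level of the 10 genes relative to 8 fibroblast markers in each sample (vertical axis, log2 units), with PyMT in red and FVB in blue, weeks as symbols and lines at the means of 12 samples. The Eln groups are 2.06 apart without overlap and the Loxl1 groups 0.30 apart, and the lowest points are the Fbn2 count of 0 and the Mfap4 count of 1.

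Other genes of the elastic fiber pathway were called in both directions. The list held 47 genes (microfibril binders, latent TGF-beta binding proteins and TGF-beta ligands, other lysyl oxidases, the copper pump Atp7a, the lysyl hydroxylases Plod1, Plod2 and Plod3, the transglutaminase Tgm2, activating proteases, elastin-degrading proteases, integrins and lysosomal proteins of the elastin receptor), of which 44 were tested: Elane and Emilin3 were below the filter on low counts, and Glb1 was left out because its reads are split over 2 gene models. Of the 44, 10, 8, 10 and 15 were called lower and 3, 2, 5 and 6 higher at weeks 6, 8, 10 and 12, with medians of -0.58, -0.44, -0.31 and -0.40. Over all tested genes the shares were 6.46%, 6.37%, 9.09% and 13.0% lower and 3.58%, 3.57%, 4.83% and 7.75% higher, and the 2 genes called higher at week 8 are near that background. In the fit of all weeks 16 of the 44 were called lower and 6 higher, against 17.2% and 8.51% of all genes. Mfap1a and Mfap1b are near-identical copies whose reads may be split between them.

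The genes called at all 4 weeks were 6 lower and 1 higher. Ltbp4, which guides tropoelastin to microfibrils together with fibulin-5, had log2 fold changes of -1.99, -1.97, -2.64 and -2.46, and its normalized counts at week 12 were 298 ± 46.5 in PyMT and 1685 ± 154 in FVB (SD, n = 3). Hmcn1, the large fibulin-family protein hemicentin-1, ran from -2.65 to -1.55, and Mmp2, a gelatinase that also cuts elastin, from -2.34 to -2.13. The remaining lower genes were Emilin2, an elastin microfibril interfacer (-2.18 to -1.47), Loxl2, a lysyl oxidase of collagen IV (-2.33 to -1.30), and Bmp1, the protease that frees Lox from its propeptide (-1.85 to -1.22). Tgfb3, a ligand that latent TGF-beta binding proteins hold in the matrix, was higher at all weeks (1.38 to 1.91), with week 12 means of 2874 ± 544 (PyMT) and 1129 ± 251 (FVB) normalized counts.

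At week 12 the largest decreases besides Hmcn1 and Ltbp4 were Mmp9, a gelatinase with elastase activity (log2 fold change -3.92, adjusted p = 0.00172), Adamtsl5, a fibrillin-binding protein (-3.18, adjusted p = 0.000498), and Efemp1, which encodes fibulin-3 (-2.80, adjusted p = 0.00448). Normalized counts in PyMT and FVB were 9.21 ± 4.06 and 145 ± 52.95 for Mmp9, and 25.8 ± 1.74 and 242 ± 58.3 for Adamtsl5. For Efemp1 they were 162 ± 114 and 1157 ± 432. The Mmp9 mean in PyMT is below the 12 reads of a packet in PyMT week 12 replicate 1, so the size of its fold change is uncertain. The largest increases were Adamtsl2, a microfibril-associated glycoprotein (4.00, adjusted p = 0.0142, with 186 ± 57.8 normalized counts in PyMT and 11.5 ± 16.6 in FVB), Tgfb2 (1.75, adjusted p = 0.00248), Ltbp2, which binds fibrillin-1 and fibulin-5 (1.60, adjusted p = 0.000481), the integrin subunit Itgb3 (1.57, adjusted p = 0.000953) and Ctss, the elastin-degrading cathepsin S (1.56, adjusted p = 0.00277). Adamtsl2 and Ltbp2 were called at week 12 and not at the other weeks. The FVB mean of Adamtsl2 is below its SD and close to the 9 reads of a packet in FVB week 12 replicate 2. The size of its fold change (SE 0.92) is thus uncertain too.

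**Figure D4:**
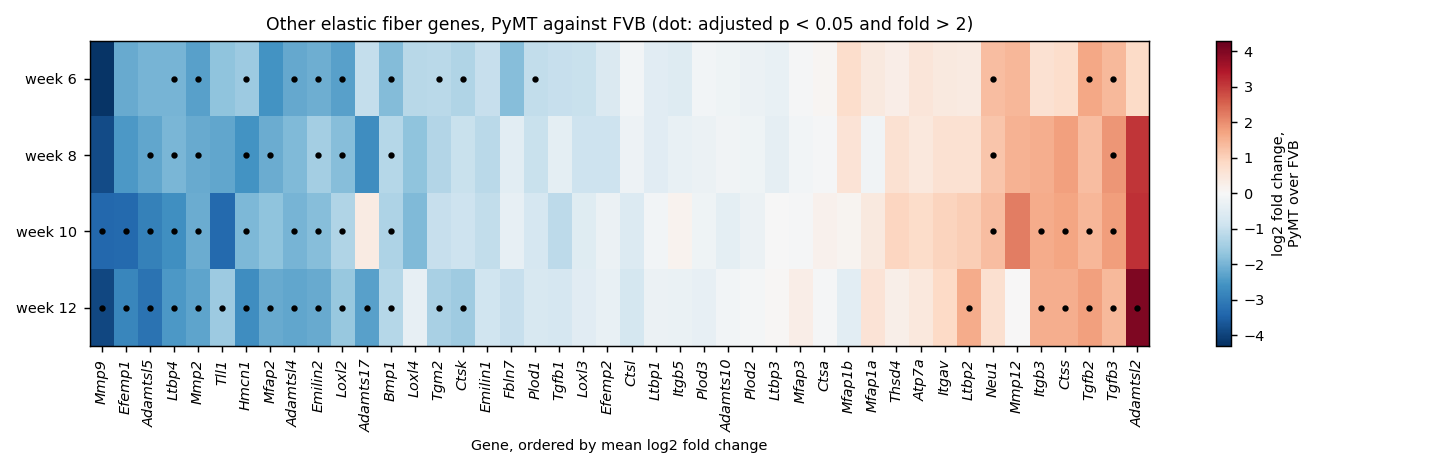
Log2 fold change of PyMT over FVB (color) for 44 other elastic fiber genes (columns, by mean) at 4 weeks (lines), where a dot marks an adjusted p under 0.05 with a fold change over 2. Ltbp4, Mmp2, Hmcn1, Emilin2, Loxl2 and Bmp1 carry a dot on the lower side at all weeks, and Tgfb3 on the higher side.

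Within groups, the genes correlated with each other to different degrees. Correlations were taken over the 24 samples on log2 CPM after subtraction of each group's mean, and the points share the libraries and their depth. Over the 45 pairs Pearson's r ran from -0.25 (Fbn2 and Fbln1) to 0.78 (Fbln2 and Fbln5), with a median of 0.42, 17 pairs over 0.5 and 7 below 0. The share of such values over all tested genes was not counted, so these counts have no background. By r among all tested genes, Fbln5 ranked 11 for Fbln2, while Lox, at an r of 0.58, ranked 937 for Eln. Fbn2 and Fbln1 had the lowest medians of r to the other genes, 0.032 and -0.066, against 0.63 for Fbln5 and 0.61 for Fbln2. Among all tested genes the one most like each was Pltp for Loxl1 (0.90), Rcn3 for Lox (0.89) and for Fbln2 (0.82), Lamb1 for Fbln5 (0.88), Lipa for Fbln1 (0.77), Loxl2 for Fbn1 (0.82), Fzd6 for Fbn2 (0.97), Mmp23 for Mfap4 (0.93), Sept8 for Mfap5 (0.82) and Rpl26 for Eln (0.87). Packets enter these values too, and their part was not tested. So do the Fbn2 count of 0 in FVB week 10 replicate 3 and the Mfap4 count of 1 in PyMT week 6 replicate 2. Correlations without these libraries were not taken, so the r values of Fbn2 and Mfap4 may each rest on 1 library.

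**Figure D5:**
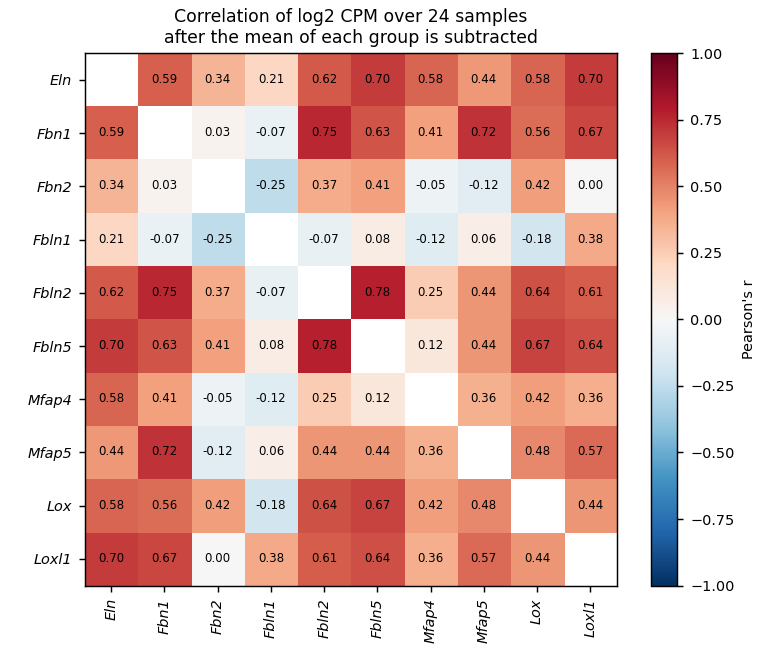
Pearson's r (color and number) between each pair of the 10 genes over 24 samples, on log2 CPM with the mean of each group subtracted. Fbln2 and Fbln5 share the highest value, 0.78, and the Fbn2 and Fbln1 lines hold most of the values near or below 0.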

How the data were processed

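Total RNA of snap-frozen tissue was depleted of ribosomal RNA and sequenced as directional libraries. Per the labels and the methods, the authors used GSNAP for alignment to mm9 and HTSeq for gene counts, and deposited the raw counts. The strand setting and annotation release are not given in the sources used here. Of 37991 genes, 37205 had a GENCODE M1 model, used for symbols and coordinates. Groups follow the titles of the samples.

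The 14918 genes whose CPM reached 1 in 12 or more of the 24 samples were tested in R 4.3.3 with edgeR 4.0.16 (glmQLFit and glmQLFTest, TMM), at each week on 6 samples, and across weeks on 24 samples. The methods name edgeR, the thresholds and the filter, not the function. Normalized counts are counts over the size factors of DESeq2 1.42.0, and 1 was added before log2. The log2 CPM used a prior count of 1. Alternatives were DESeq2, limma 3.58.1 voom with sample quality weights, the exact test, glmTreat, RLE and library size scaling, no filter, a shared fit, a replicate block, counts divided by the packet size and each library left out. The fits were tested on simulated data. Promoters were read from the mm9 genome. Figures used Python 3.11.15 and matplotlib 3.10.9.

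The 10 genes, the lists and the markers were chosen with earlier results of these data known. Named besides the 10 were, of the other elastic fiber genes, those called at all 4 weeks and the 5 largest increases and 5 largest decreases among those called at week 12, and, of the 3 genes most like each of the 10, the closest. Libraries of a group differed by a chi-square per gene of 16.1 to 207 over 24 pairs, so no library was a copy of another of its group. Libraries of different groups were not compared in this way.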

Additional observations from a re-analysis of the deposited data

Results flagged for a closer look

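Eln lay in opposite directions at weeks 6 and 10. All 3 PyMT samples were below all 3 FVB samples at week 6 (log2 fold change -0.98), and all 3 were above at week 10 (0.87), and neither week passed the test. The share of all tested genes that separate so was not counted. The change of the difference from week 6 to week 10, a comparison chosen after these values were seen, was 1.83 on the log2 scale (SE 0.54, unadjusted p = 0.00266, adjusted p = 0.618 over all genes in edgeR). In that comparison 1 gene was called and 872 had an unadjusted p under 0.05. The PyMT week 6 and FVB week 10 groups held packets in each of their 3 libraries, and with counts divided by the packet size week 6 gave -0.98 (adjusted p = 0.0271) and week 10 gave 0.89 (adjusted p = 0.0307), as large as before and short of the fold change of 2.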

How the results depend on the processing

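The count of elastic fiber genes called lower in PyMT moved as follows. At week 6 it was 4, and it was 8 with DESeq2, 7 with the exact test and 6 with counts divided by the packet size. It was 5 with no filter or the shared fit, 1 with glmTreat and 2 with library size alone. Without 1 library it was 2 to 5 (2 without PyMT replicate 1 or FVB replicate 2). At week 8 it was 2, and it was 0 with glmTreat, 1 with library size alone and 5 with voom. It was 3 with DESeq2, the exact test, no filter, the replicate block, counts divided by the packet size or the shared fit. Without 1 library it was 0 to 5 (0 without PyMT replicate 1, 1 without PyMT replicate 2, FVB replicate 2 or FVB replicate 3, and 5 without FVB replicate 1). At week 10 it was 1, and it was 2 with DESeq2, the exact test, the replicate block or counts divided by the packet size, 3 with voom or the shared fit and 1 to 2 without 1 library (2 without PyMT replicate 1 or 2). At week 12 it was 4, and it was 1 with glmTreat, 2 with library size alone and 1 to 4 without 1 library (2 without PyMT replicate 2, 1 without PyMT replicate 3 or FVB replicate 3). Over the 4 weeks it stayed at 3 to 6 in all 31 alternatives, and at 4 without the 4 libraries with the most genes at 0, an alternative chosen after seeing the data. Values that changed sign were those of Lox at week 10 (0.15 with library size alone, -0.33 to 0.24 without 1 library), Eln at week 12 (-0.063 with voom, -0.082 to 0.35 without 1 library) and Eln over the 4 weeks (0.071 with library size alone). Fbn2 at week 12 was 0.094 with library size alone, 0.38 with the replicate block, 0.76 with voom, 0.16 with counts divided by the packet size and -0.53 to 1.18 without 1 library, and without FVB replicate 2 it passed the test on the higher side (1.18, adjusted p = 0.0301). Without 1 library, Fbn2 at week 10 ran from -1.10 to 0.94, Mfap4 at week 10 from -0.098 to 0.84 and Mfap4 at week 12 from -0.70 to 0.13. Further calls on the lower side came up without FVB week 6 replicate 1 (Fbn2 -2.38), PyMT week 6 replicate 3 (Mfap5 -1.71), FVB week 8 replicate 1 (Fbn1 -1.19, Mfap4 -1.57, Mfap5 -1.28), PyMT week 10 replicate 1 (Fbln2 -1.06) and PyMT week 10 replicate 2 (Mfap5 -1.32), and over the 4 weeks Fbn1 passed the fold change of 2 (down to -1.02) without PyMT week 8 replicate 3, PyMT week 12 replicate 1, FVB week 8 replicate 1 or FVB week 12 replicate 2, as did Fbln2 (-1.02) without PyMT week 8 replicate 3. Apart from library scaling, whose construction sets the shift, the cause was not tested. Among the log2 fold changes of the genes under all alternatives, 941 kept direction and side of the threshold, 45 came past it, 40 fell short of it and 17 changed sign. Whether replicate numbers pair the samples was not settled. The same-number r between PyMT and FVB deviations ran from -0.03 to 0.18, with 4 of 12 over 0.1. Between different numbers r ran from -0.14 to 0.092. Of the 12 PyMT samples, 7 correlated best with their own number, so a weak pairing remains possible. The replicate block gave 4, 3, 2 and 3 genes called lower at weeks 6, 8, 10 and 12, and 4 over the 4 weeks. With it Eln was called lower at week 6 (-1.01, adjusted p = 0.0285), Mfap5 at week 8 (-1.11, adjusted p = 0.0473) and Fbln1 at week 10 (-1.52, adjusted p = 0.0459), and Fbln1 lost its calls of week 6 (adjusted p = 0.103) and week 12 (adjusted p = 0.0602). Depth limits Mfap4 most, with a median of 6.17 packets.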
